A study of Mus musculus with 11 samples.

Results

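The miR-148 and miR-152 family was followed through sorted mouse splenic CD8+ T cells. Its members were taken by name from a table of mature miRNAs, as the rows named mmu-miR-148a-3p, mmu-miR-148a-5p, mmu-miR-148b-3p, mmu-miR-148b-5p and mmu-miR-152-3p (the prefix for mouse is left out from here on), which makes 5 of 2008 distinct rows. All 5 passed the filter on low counts that left 545 rows for testing. In the comparisons a row passed where its p-value, adjusted over these rows by Benjamini-Hochberg, was under 0.05. Small RNA was sequenced in 11 libraries that form 4 groups by cell subset and by the mice they came from. Dirty_VM, Dirty_TN and Clean_VM had 3 libraries each, and Clean_TN had 2, numbered 2 and 3. All cells were CD4-, CD8+, CD49dlo and GFP+ and were split by CD44. The CD44hi cells are named stamped VM and the CD44lo cells stamped TN. VM stands for virtual memory cells, which carry a memory phenotype without having met foreign antigen, and TN for true naive cells. The labels name the mice clean or dirty and define neither word, nor what GFP reports, and they give no strain or age. They state a purity of over 95% after the sort and 10000 sorted cells per sample. Nothing in them says whether libraries of a group came from separate mice, so p-values here measure the spread between these libraries, which may be technical.

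A miRNA pairs with target mRNAs mainly through its seed, bases 2 to 8 from the 5′ end, and lowers their translation and stability. The 3p members of this family share 1 seed and are known to repress the DNA methyltransferase Dnmt1. In mouse lymphocytes miR-148a is known to repress Bcl2l11, which encodes the pro-apoptotic protein Bim, in T helper 1 cells, and to act on Bcl2l11 and Gadd45a in B cell tolerance. A hairpin gives a 3p and a 5p mature strand, and for these hairpins the 3p strand is the abundant one.

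The mature sequences show which members share a seed and how little separates the 3p rows from each other. They are from RefSeq (GRCm38.p6, the mm10 build), matched by name for 5 of 5 members, 5′ to 3′, with the seed in capitals.
miR-148a-3p: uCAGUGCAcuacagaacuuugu
miR-148b-3p: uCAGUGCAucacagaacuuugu
miR-152-3p: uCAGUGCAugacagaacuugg
miR-148a-5p: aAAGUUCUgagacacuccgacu
miR-148b-5p: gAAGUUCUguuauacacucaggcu

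The 3 members of the 3p arm are the mature miRNAs in the RefSeq table with this seed, 3 in all. The 2 members of the 5p arm share another seed. Counted from 1 at the 5′ end, miR-148b-3p differs from miR-148a-3p at 2 of 22 positions (C9U and U10C). miR-152-3p differs from miR-148a-3p at 3 of 21 compared positions (C9U, U10G and U20G) and from miR-148b-3p at 2 (C10G and U20G). None of these positions lies in the seed.

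The 3 hairpins lie on separate chromosomes. Mir148a lies on the minus strand of chromosome 6 at 51269812 to 51269910, with no host gene annotated (GENCODE M21) and Nfe2l3 as the nearest protein-coding gene at 162760 bp. Mir148b lies in an intron of Copz1 on the plus strand of chromosome 15 at 103285125 to 103285221. Mir152 lies in an intron of Copz2 on the plus strand of chromosome 11 at 96850393 to 96850465. Copz1 and Copz2 encode paralogous zeta subunits of the coatomer of COPI vesicles, and each intronic hairpin has the strand of its host.

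Levels are given as CPM, counts scaled to a common library total and so comparable between libraries, here computed on totals scaled by the trimmed mean of M values (TMM). Total estimated counts ran between 2614396 and 16312004 per library. With 3 counts as the floor, a count of 0 allowed up to 0.18 to 1.23 CPM, which covers counting error only. The lymphocyte miRNA miR-150-5p stood at 66200 CPM or more in every library. As for other cells, the myeloid miR-223-3p reached at most 3.12 CPM, the erythroid miR-451a 28 CPM and the endothelial miR-126a-3p 50.3 CPM, while the hepatocyte miR-122-5p stood between 851 and 2740 CPM. In these pools a higher level per cell and more cells that carry a miRNA cannot be told apart.

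miR-148a-3p was the most abundant member, with a mean over the 4 groups of 1430 CPM (rank 50 of 545). miR-148b-3p followed at 1050 CPM (rank 60). The other three were far lower, with miR-148b-5p at 16.5 CPM, miR-152-3p at 6.49 CPM and miR-148a-5p at 0.879 CPM. Mature miRNAs are of nearly equal length, here 21 to 24 bases, so these levels are comparable between members except for any bias of the library preparation. The partner strand miR-152-5p, which is not a member, had 1 count in all 11 libraries together, in Dirty_VM replicate 3.

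The values point to reads split between the 3p rows. Fractional counts appeared in at least 1 of these 3 rows in 7 of 11 libraries. In each of these 7 the fractional parts of the 3 rows added to a whole number (within 0.02). The remaining libraries had no fractional part and do not bear on this. Neither 5p member had a fractional count in any library. How many reads were split is not given by these values. The limit bears most on miR-152-3p, which held 0.128% to 0.92% of the summed counts of the 3 rows. The sum of the rows is free of it when the split is among these rows alone, and is given below as a separate fit.

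**Figure D1:**
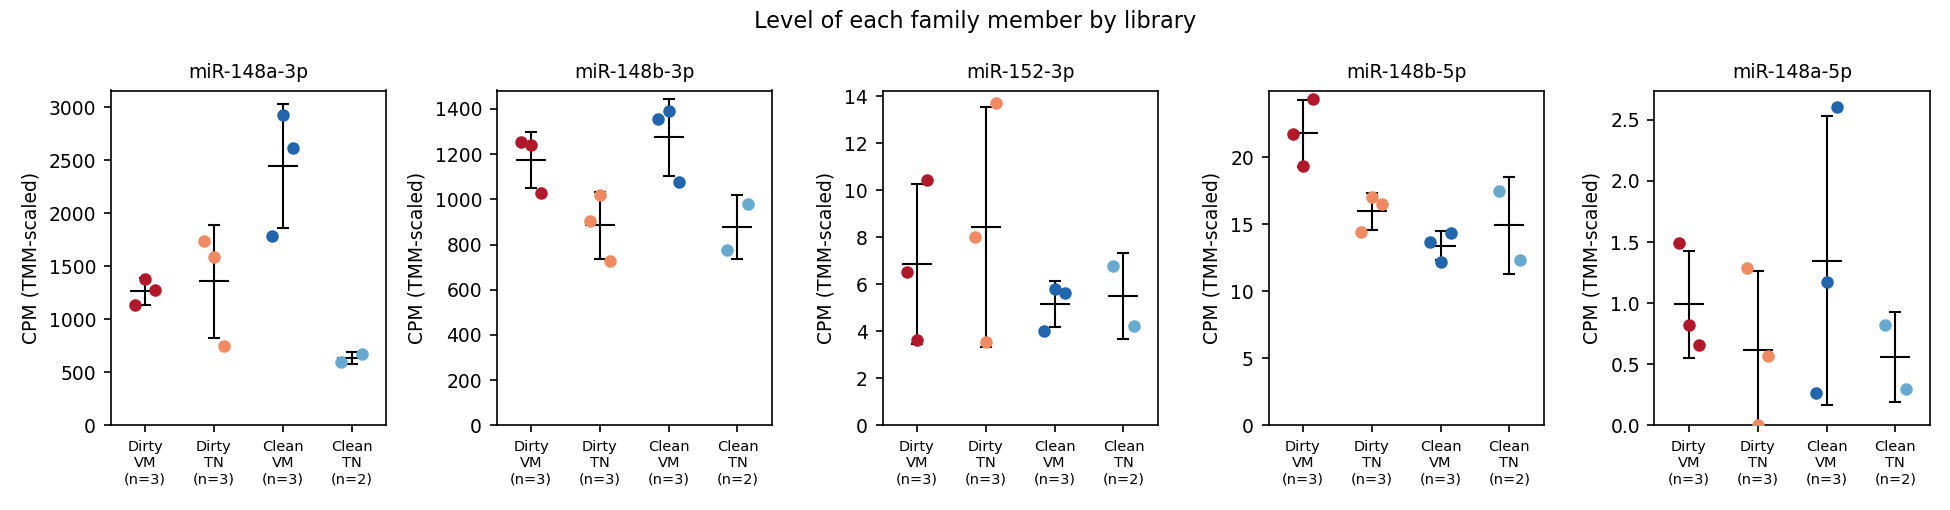
Level of each member in CPM on TMM-scaled totals (vertical axes start at 0 and differ between panels). Points are libraries, black lines the mean ± SD. In miR-148a-3p the 3 Clean_VM libraries sit highest and the 2 Clean_TN libraries lowest, while Dirty_VM and Dirty_TN lie between them and overlap.

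miR-148a-3p separated VM from TN cells in clean mice. It stood at 1790, 2928 and 2620 CPM in Clean_VM replicates 1, 2 and 3, against 593.1 and 673.8 CPM in Clean_TN replicates 2 and 3. Every Clean_VM library lay above both Clean_TN libraries, in a comparison where 52.1% of all rows had no overlap. The group means were 2450 ± 589 CPM in Clean_VM (SD, n = 3) and 633 ± 57.1 CPM in Clean_TN (SD, n = 2). In the edgeR quasi-likelihood fit of all 545 rows miR-148a-3p rose 3.86-fold, a log2 change of 1.95 ± 0.34 (SE, adjusted p = 0.00187), against a median of 0.08 over all rows. It was 1 of 5 members that passed, where 17.4% of all rows did. By the mean of the group it ranked 37 of 545 in Clean_VM and 79 in Clean_TN. Leaving out each library in turn, the log2 change stayed between 1.65 and 2.18 and passed every time (edgeR adjusted p at most 0.0442). Within the libraries of fewer than 5000000 counts it was 1.18 and did not pass, with 1 Clean_VM and 1 Clean_TN library. Within the deeper ones it was 2.18, with Clean_TN replicate 2 as the only Clean_TN library. In both fits the spread of Clean_TN thus came from other groups.

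Markers of other cells were read in the same comparison. The 5 erythroid miRNAs summed to 129 to 261 CPM in Clean_VM, against 59.9 to 76.7 CPM in Clean_TN, and 2 of 4 tested rose, with a median log2 change of 1.87. miR-451a itself spanned 5.37 to 28 CPM in Clean_VM and 13.3 to 16.9 CPM in Clean_TN. The 5 hepatocyte and muscle miRNAs summed to 1930 to 3400 CPM in Clean_VM, against 1700 to 1800 CPM in Clean_TN, and 0 of 5 passed. Within them miR-122-5p stood between 1210 and 2740 CPM in Clean_VM and between 851 and 1070 CPM in Clean_TN. In the same list miR-192-5p had the opposite sign, with 641 to 712 CPM in Clean_VM and 710 to 844 CPM in Clean_TN. Its log2 change of -0.18 ± 0.22 did not pass (SE, edgeR adjusted p = 0.616). Hepatocytes are known to express miR-148a as well. The resting lymphocyte list fell for 2 of 5, with a sum of 84200 to 111000 CPM in Clean_VM and 139000 to 147000 CPM in Clean_TN.

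miR-148b-3p, which has the same seed, had a smaller difference in clean mice. It stood at 1356, 1389 and 1077 CPM in Clean_VM replicates 1, 2 and 3, against 775.9 and 977.4 CPM in Clean_TN replicates 2 and 3. The groups did not overlap, as was so in either direction for 52.1% of all rows, and the lowest VM and the highest TN library were close. The means were 1270 ± 171 CPM in Clean_VM (SD, n = 3) and 877 ± 142 CPM in Clean_TN (SD, n = 2), a log2 change of 0.54 ± 0.22 that did not pass (edgeR adjusted p = 0.11).

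The 3 low members did not pass in clean mice. miR-152-3p had 5.15 ± 0.977 CPM in Clean_VM (SD, n = 3) and 5.5 ± 1.82 CPM in Clean_TN (SD, n = 2), with an edgeR adjusted p of 0.912. miR-148b-5p, the partner strand of miR-148b-3p, had 13.4 ± 1.1 CPM in Clean_VM and 14.9 ± 3.63 CPM in Clean_TN (edgeR adjusted p = 0.685). miR-148a-5p, the partner strand of miR-148a-3p, had 1, 12 and 26 counts in the 3 Clean_VM libraries, against 9 and 1 counts in Clean_TN. At that depth a difference in miR-148a-5p as large as that of its partner strand was not detectable (edgeR adjusted p = 0.49).

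Summed over the 3 rows of the shared 3p seed, Clean_VM cells had 3720 ± 587 CPM (SD, n = 3) and Clean_TN cells 1520 ± 197 CPM (SD, n = 2). Fitted as 1 row in place of the 3, the sum rose 2.47-fold, a log2 change of 1.31 ± 0.26 (SE, edgeR adjusted p = 0.00471 over 543 rows). miR-148a-3p supplied 65.1% ± 7.35 of it in Clean_VM libraries (SD, n = 3), against 41.9% ± 1.7 in Clean_TN libraries (SD, n = 2), where miR-148b-3p was the larger part.

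In dirty mice the same comparison gave another picture for miR-148a-3p. It stood at 1131, 1380 and 1280 CPM in Dirty_VM replicates 1, 2 and 3, against 1738, 1585 and 750.4 CPM in Dirty_TN replicates 1, 2 and 3. The groups overlapped, with Dirty_TN replicates 1 and 2 above all Dirty_VM libraries and replicate 3 below them. The means were 1260 ± 125 CPM in Dirty_VM and 1360 ± 532 CPM in Dirty_TN (SD, n = 3 each), and the log2 change of -0.10 ± 0.28 did not pass (SE, edgeR adjusted p = 0.863). Dirty_TN was the group with the widest relative spread of miR-148a-3p, at 39.1% of its mean, against 9.92% in Dirty_VM, 24.1% in Clean_VM and 9.01% in Clean_TN. Of the 5 members 0 passed in dirty mice, where 12.1% of all rows did. At an unadjusted p under 0.05 the count of members was also 0 by edgeR, where 25% of all rows were under it.

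miR-148b-3p had a small difference of the same sign as in clean mice. It stood at 1252, 1241 and 1029 CPM in Dirty_VM replicates 1, 2 and 3, against 905, 1021 and 728.5 CPM in Dirty_TN replicates 1, 2 and 3. All 3 VM libraries lay above the TN libraries, the closest pair by only a few CPM, and 30.6% of all rows had no overlap in this comparison. The log2 change was 0.41 ± 0.19 and did not pass (SE, edgeR adjusted p = 0.202). miR-148b-5p also had no overlap, with 21.72, 19.31 and 24.32 CPM in Dirty_VM against 14.39, 17.02 and 16.5 CPM in Dirty_TN. Its log2 change of 0.46 ± 0.23 did not pass (SE, edgeR adjusted p = 0.232).

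miR-152-3p varied widely in dirty mice. It had 6.545, 3.628 and 10.42 CPM in Dirty_VM replicates 1, 2 and 3, against 8.032, 3.556 and 13.73 CPM in Dirty_TN replicates 1, 2 and 3. In both subsets the shallow replicate 2 was lowest and the deep replicate 3 highest, and these levels rest on 8.83 to 173.5 counts. The groups overlapped, and miR-152-3p passed in none of the 7 contrasts (edgeR adjusted p between 0.734 and 0.969). miR-148a-5p had 5, 2 and 11 counts in Dirty_VM, against 10, 0 and 7 counts in Dirty_TN, and the 0, in Dirty_TN replicate 2, allows up to 0.865 CPM.

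Averaged over clean and dirty mice, VM minus TN passed for both abundant members, 2 of 5, where 23.7% of all rows passed. miR-148a-3p had a log2 change of 0.92 ± 0.21 (SE, edgeR adjusted p = 0.00712), an average of a large difference in clean mice and one near 0 in dirty mice. miR-148b-3p had 0.47 ± 0.15 (SE, edgeR adjusted p = 0.0319), with VM above TN libraries in both environments. Of all rows 16.5% had no overlap in both environments with the same sign, counting those with VM above and those with VM below. The call of miR-148b-3p depended on the libraries used. Leaving out 1 library at a time it passed for 2 of 11, those without Dirty_TN replicate 2 or without Dirty_VM replicate 3. Without each of the other 9 it ranged between 0.35 and 0.48 on the log2 scale (edgeR adjusted p between 0.0502 and 0.166). Markers of other cells also rose in this average. The erythroid miR-486a-5p and miR-486b-5p, near-identical copies, rose by 1.14 ± 0.27 and 1.17 ± 0.25 on the log2 scale (SE, edgeR adjusted p = 0.009 and 0.00499). The hepatocyte miR-122-5p rose by 0.76 ± 0.26, the endothelial miR-126a-3p by 0.87 ± 0.24 and the stromal miR-143-3p by 0.80 ± 0.18 (SE, edgeR adjusted p = 0.0482, 0.0208 and 0.00577). Of the lists these were 2 of 4 tested erythroid, 1 of 5 hepatocyte and muscle, 1 of 2 endothelial and platelet and 1 of 5 stromal miRNAs, and 2 of 7 epithelial ones rose as well. By contrast miR-192-5p, of the hepatocyte and muscle list, had -0.35 ± 0.14 and did not pass (SE, edgeR adjusted p = 0.108).

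**Figure D2:**
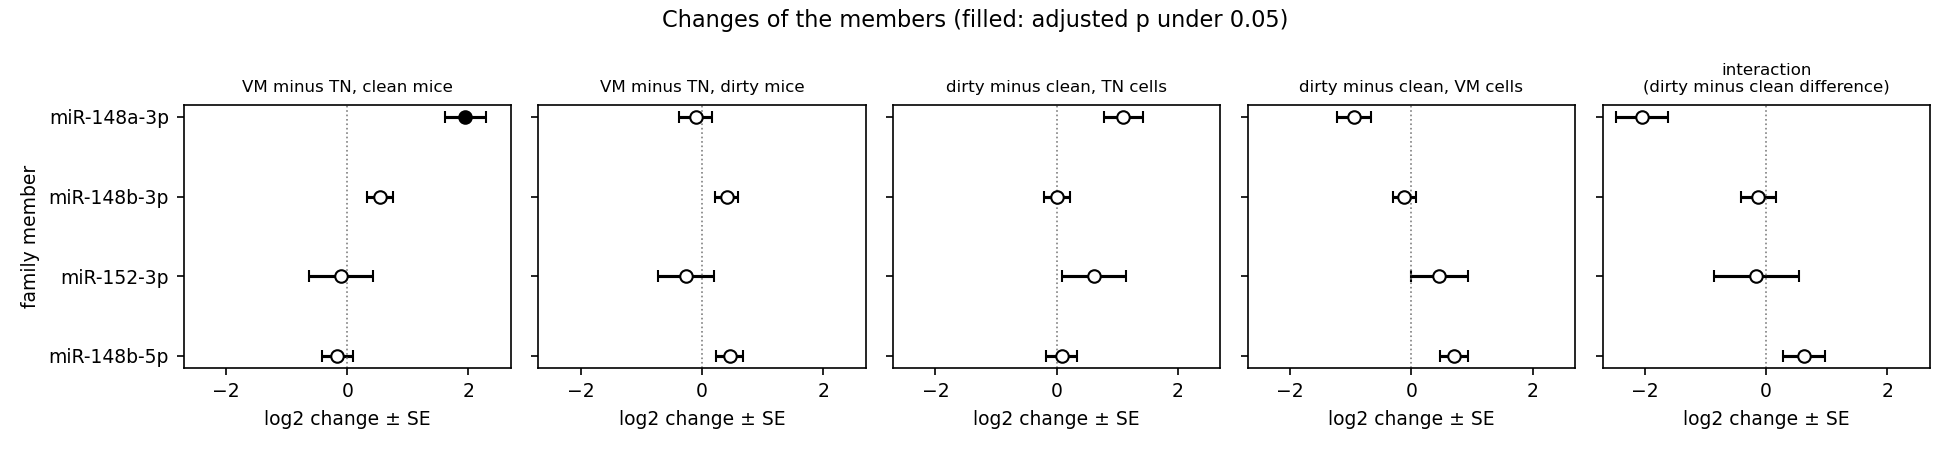
Log2 changes ± SE of the 4 members above the floor of 3 counts in every library, in 5 contrasts of 1 edgeR fit over 11 libraries. Filled points have an adjusted p under 0.05. miR-148a-3p in clean mice (1.95) is the one filled point, and the difference of -2.05 between dirty and clean mice in the last panel is open.

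Set against clean mice, miR-148a-3p lay higher in the TN cells of dirty mice and lower in their VM cells. In TN cells it averaged 1360 ± 532 CPM in Dirty_TN (SD, n = 3) and 633 ± 57.1 CPM in Clean_TN (SD, n = 2). All Dirty_TN libraries lay above both Clean_TN libraries, as was so in either direction for 23.3% of all rows, with Dirty_TN replicate 3 at 750.4 CPM close to the Clean_TN values. The log2 change was 1.10 ± 0.32 and did not pass (SE, edgeR adjusted p = 0.559). In VM cells it averaged 1260 ± 125 CPM in Dirty_VM and 2450 ± 589 CPM in Clean_VM (SD, n = 3 each). All Dirty_VM libraries lay below all Clean_VM libraries, as was so in either direction for 20.9% of all rows, and the log2 change of -0.95 ± 0.28 did not pass (SE, edgeR adjusted p = 0.164). The erythroid list had medians over the 4 tested of 0.85 in TN and -0.19 in VM cells, against 0.16 and 0.08 over all rows. miR-486a-5p had log2 changes of 0.85 ± 0.41 in TN and -0.63 ± 0.35 in VM cells and did not pass (SE, edgeR adjusted p = 0.559 and 0.424). Its near-identical copy miR-486b-5p had 0.84 and -0.64. By contrast miR-451a (0.05 in TN and 0.25 in VM cells) and miR-144-5p (0.98 and 0.58) were above 0 in both subsets. None of these passed by edgeR.

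No row passed by edgeR in either comparison of dirty with clean mice. In TN cells 0% of the 545 rows passed by edgeR and 38 (6.97%) had an unadjusted p under 0.05, while DESeq2 called 3 rows and limma-voom 0. In VM cells 0% passed by edgeR and 81 (14.9%) had an unadjusted p under 0.05, while DESeq2 called 19 rows and limma-voom 1. miR-148a-3p was among the rows DESeq2 called in VM cells (log2 change -1.02, adjusted p = 0.0108). Its edgeR p-value ranked 4 of 545 in TN and 15 of 545 in VM cells. Averaged over TN and VM cells no member passed by edgeR (0% of all rows, 28 or 5.14% with an unadjusted p under 0.05, and 1 row each by DESeq2 and limma-voom).

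For no other member were dirty libraries apart from clean ones in both subsets. miR-148b-3p averaged 885 ± 147 CPM in Dirty_TN (SD, n = 3) and 877 ± 142 CPM in Clean_TN (SD, n = 2). In VM cells it averaged 1170 ± 126 CPM in Dirty_VM and 1270 ± 171 CPM in Clean_VM (SD, n = 3 each), and the libraries overlapped in both subsets. miR-152-3p averaged 8.44 ± 5.1 CPM in Dirty_TN (SD, n = 3) and 5.5 ± 1.82 CPM in Clean_TN (SD, n = 2), and 6.86 ± 3.41 CPM in Dirty_VM and 5.15 ± 0.977 CPM in Clean_VM (SD, n = 3 each), also with overlap. miR-148a-5p overlapped in both subsets too, but its counts, at most 26 in a library, are too few to tell whether it moved with its partner strand. miR-148b-5p averaged 21.8 ± 2.51 CPM in Dirty_VM and 13.4 ± 1.1 CPM in Clean_VM (SD, n = 3 each) without overlap, as was so in either direction for 20.9% of all rows. Its log2 change of 0.71 ± 0.23 did not pass (SE, edgeR adjusted p = 0.201).

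The difference between the differences was then tested. For miR-148a-3p, VM minus TN in dirty mice less VM minus TN in clean mice was -2.05 ± 0.43 on the log2 scale (SE, edgeR adjusted p = 0.0935), which did not pass. Its p-value ranked 2 of 545. By edgeR 0% of rows passed this test and 93 (17.1%) had an unadjusted p under 0.05, while DESeq2 called 41 rows and limma-voom 0. DESeq2 called miR-148a-3p with a log2 difference of -2.03 (adjusted p = 5.58e-04). Of all rows 1.47% (8 rows) shared the arrangement of miR-148a-3p, in which dirty libraries lay above clean ones throughout TN cells and below them throughout VM cells. The erythroid list had a median of -0.94 in this difference, against -0.05 over all rows, with -1.49 ± 0.54 for miR-486a-5p and -1.48 ± 0.50 for miR-486b-5p, which did not pass (SE, edgeR adjusted p = 0.21 and 0.185). In the same list miR-451a had 0.19 ± 0.76 and miR-144-5p -0.40 ± 1.41 (SE, edgeR adjusted p = 0.955 and 0.952). The hepatocyte miR-122-5p had -0.84 ± 0.51 and miR-192-5p -0.34 ± 0.29 (SE, edgeR adjusted p = 0.402 and 0.582). Their part in the result on miR-148a-3p was not tested.

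Dirty_TN replicate 3 weighed most on these calls. Without it the difference of -2.17 passed (edgeR adjusted p = 0.00115), as did the rise of 1.17 in TN cells of dirty mice (adjusted p = 0.0169) and the change of -0.999 in their VM cells (adjusted p = 0.00968). These calls came with many others. Over all rows edgeR then called 73 for the difference, 28 in TN cells and 26 in VM cells. With all 11 libraries it called 0 in each. The comparison in VM cells holds no Dirty_TN library and shares only the spread and scaling of the fit with it. Without Clean_VM replicate 1 the difference was -2.33 and passed (edgeR adjusted p = 0.0388), and without each of the other 9 libraries it lay between -2.19 and -1.74 and did not. In Dirty_TN replicate 3 the level of miR-148a-3p stood apart from its group while that of miR-148b-3p, at 728.5 CPM, was the lowest of its group by a smaller margin. For the sum of the 3 3p rows the same difference was -1.19 ± 0.33 (SE, edgeR adjusted p = 0.11).

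**Figure D3:**
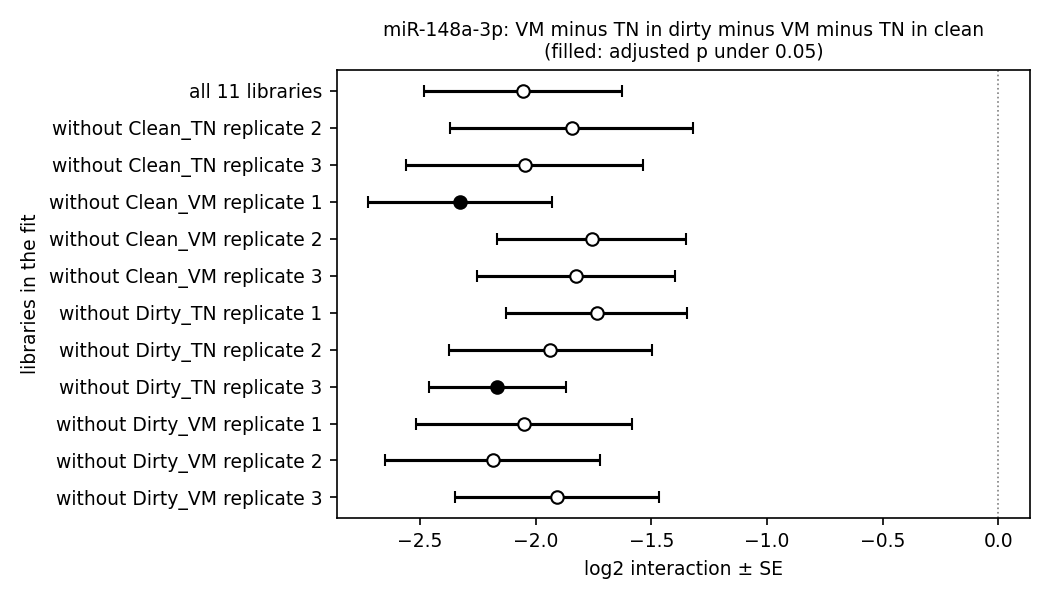
Difference between dirty and clean mice of the VM minus TN change in miR-148a-3p, log2 ± SE, with all 11 libraries and without each in turn. Filled points have an adjusted p under 0.05. Every estimate lies below 0, between -2.33 and -1.74, and it passes without Clean_VM replicate 1 or Dirty_TN replicate 3.

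The ratio of miR-148a-3p to miR-148b-3p within a library compares these members without any scaling between libraries. It was 0.903, 1.11 and 1.24 in Dirty_VM, against 1.92, 1.55 and 1.03 in Dirty_TN. In clean mice it was 1.32, 2.11 and 2.43 in Clean_VM, against 0.764 and 0.689 in Clean_TN. miR-148b-3p was thus the more abundant of the pair in both Clean_TN libraries and in Dirty_VM replicate 1, and miR-148a-3p in the other 8.

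On the log2 scale the ratio was higher by 1.38 in VM than in TN cells of clean mice, without overlap (two-sided exact permutation test, p = 0.1, the smallest that 3 against 2 libraries can give). In dirty mice it differed by -0.43 (exact permutation p = 0.3, where the smallest possible is 0.1). Averaged over both environments the difference was 0.47 (exact permutation within environments, 200 arrangements, p = 0.26, adjusted p = 0.42 over 3 ratios). The difference between dirty and clean mice was -1.81 (exact permutation of the environment within subsets, p = 0.015, adjusted p = 0.045 over 3 ratios), a test chosen after the values were seen. Shuffling the environment within each subset tests for no effect of it in either subset. The p-value is thus not one for the difference between the differences alone. That difference was -1.57 within the shallow and -1.74 within the deep libraries, and between -2.07 and -1.61 without each library in turn.

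The arms of a hairpin gave no difference that passed. The ratio of miR-148b-3p to miR-148b-5p was between 42.2 and 63.6 in Dirty_VM, between 44.1 and 62.6 in Dirty_TN, between 74.8 and 114 in Clean_VM, and 44.3 and 78.2 in Clean_TN. Its VM minus TN difference was 0.32 on the log2 scale (exact permutation p = 0.28, adjusted p = 0.42). Dirty minus clean, it was -0.81 in VM cells, without overlap, and -0.10 in TN cells (exact permutation p = 0.1 and 0.9). The 0.1 is the smallest that 3 against 3 libraries can give, so this comparison could not pass. The difference between dirty and clean mice was -0.71 (exact permutation of the environment within subsets, p = 0.22, adjusted p = 0.22). For miR-148a the 3p strand exceeded the 5p strand between 686-fold and 11000-fold with 0.5 counts added to each, and its log2 ratio differed between VM and TN cells by 1.12 in clean mice (exact permutation p = 0.4) and by -1.11 in dirty mice (exact permutation p = 0.6). These average to 0.00 (exact permutation p = 1, adjusted p = 1), and their difference was -2.23 (exact permutation of the environment within subsets, p = 0.175, adjusted p = 0.22). The highest of these ratios is from Dirty_TN replicate 2, where the 5p strand had no count.

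**Figure D4:**
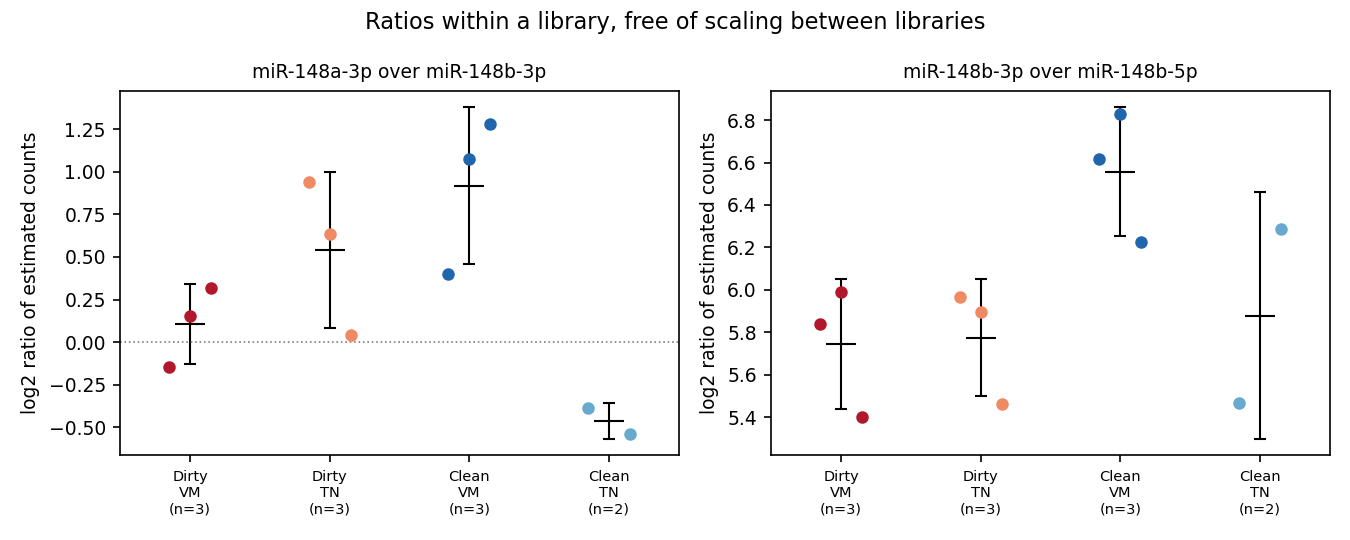
Log2 ratios of estimated counts within each library, miR-148a-3p over miR-148b-3p (left; the dotted line marks equal counts) and miR-148b-3p over miR-148b-5p (right). Points are libraries and black lines the mean ± SD; the vertical axes do not start at 0. On the left both Clean_TN libraries lie below 0 and the 3 Clean_VM libraries above it.

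Among 262 other rows with a mean of 10 CPM or more, those whose log2 levels followed miR-148a-3p most closely over the 11 libraries were miR-1964-3p, miR-671-3p, miR-30e-3p, miR-151-5p and miR-674-3p. Pearson's r was 0.957, 0.951, 0.939, 0.929 and 0.927 in that order, given as a description, since the libraries share their groups and their scaling. miR-1964-3p, for example, averaged 239 CPM in Dirty_VM, 242 CPM in Dirty_TN, 406 CPM in Clean_VM and 142 CPM in Clean_TN. miR-148b-3p was ranked 59 by this measure (r = 0.67). The rows closest to miR-148b-3p were others, miR-130b-5p, miR-16-1-3p, miR-30a-3p, miR-374b-5p and miR-1843a-3p (r between 0.832 and 0.867). miR-130b-5p averaged 739 CPM in Dirty_VM, 322 CPM in Dirty_TN, 759 CPM in Clean_VM and 186 CPM in Clean_TN.

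Other miRNAs linked to T cell activation or to the same targets were counted for comparison. Of 12 tested activation miRNAs 8 rose and 1 fell in VM cells of clean mice, with a median log2 change of 0.95 against 0.08 over all rows. miR-21a-5p rose by 1.69 ± 0.20, miR-182-5p by 1.79 ± 0.35 and miR-183-5p by 2.19 ± 0.43 (SE, edgeR adjusted p = 1.05e-04, 0.00495 and 0.00479). The 1 that fell was miR-132-3p, with -1.4 ± 0.25 in clean and -1.33 ± 0.23 in dirty mice (SE, edgeR adjusted p = 0.00245 and 0.00199). In dirty mice 5 of the 12 rose and 1 fell, with a median of 0.58 against 0.02. There miR-21a-5p rose by 2.08 ± 0.17 (SE, edgeR adjusted p = 9.39e-06), while miR-182-5p and miR-183-5p, which come from 1 cluster, had log2 changes of 0.04 ± 0.30 and 0.02 ± 0.35 and did not pass. The differences between dirty and clean mice were -1.75 for miR-182-5p and -2.17 for miR-183-5p and did not pass (edgeR adjusted p = 0.0952 and 0.095). For miR-221-3p this difference went the other way, at 1.30 ± 0.36, and did not pass either (SE, edgeR adjusted p = 0.102). Its VM minus TN change was -0.21 in clean and 1.09 in dirty mice. The median of the 12 in this difference was -0.18, against -0.05 over all rows. Of 6 tested miRNAs known to target DNA methyltransferases 0 passed in clean mice (median 0.50 against 0.08) and 1 rose in dirty mice, miR-29c-3p by 1.11 ± 0.31 (SE, edgeR adjusted p = 0.0327). Of 9 tested miRNAs known to target Bcl2l11 1 rose in clean mice, miR-92a-3p by 0.62 ± 0.20 (SE, edgeR adjusted p = 0.0466), while the median of the list was -0.46 against 0.08. In dirty mice 0 of the 9 passed, with a median of 0.02 against 0.02. None of these lists had a member that passed by edgeR in the test of the difference between dirty and clean mice, where 0% of all rows did.

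In dirty mice the erythroid sum was 122 to 200 CPM in Dirty_VM and 68.9 to 147 CPM in Dirty_TN, and 0 of 4 tested passed, with a median log2 change of 0.41 against 0.02 over all rows. The hepatocyte and muscle sum was 1970 to 3130 CPM in Dirty_VM and 1900 to 2990 CPM in Dirty_TN, with miR-122-5p at 1240 to 2470 CPM in Dirty_VM and 922 to 1820 CPM in Dirty_TN, and 0 of 5 passed. In this list miR-192-5p had 630 to 722 CPM in Dirty_VM and 723 to 1160 CPM in Dirty_TN. Its log2 change was -0.52 ± 0.19 (SE, edgeR adjusted p = 0.111). The 2 endothelial and platelet miRNAs summed to 29.6 to 53 CPM in Dirty_VM and 15.3 to 29.7 CPM in Dirty_TN, and to 21.7 to 47.7 CPM in Clean_VM and 18.4 to 19.3 CPM in Clean_TN. The 3 myeloid miRNAs summed to at most 3.61 CPM in any library. Of 7 tested epithelial miRNAs 1 rose in dirty mice, miR-200a-3p by 0.79 ± 0.18 (SE, edgeR adjusted p = 0.00911), and 1 in clean mice, again miR-200a-3p, by 0.65 ± 0.20 (SE, edgeR adjusted p = 0.0394). Of 5 tested stromal miRNAs 0 passed in dirty mice and 1 rose in clean mice, miR-143-3p by 1.10 ± 0.27 (SE, edgeR adjusted p = 0.0146). No listed marker was at 0 in all libraries. The part of these cells, or of free RNA, in the results on miR-148a-3p was not tested.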

How the data were processed

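Libraries came from the NEBNext Small RNA kit, per the labels' protocols. The authors deposited estimated counts (expected counts) per mature miRNA and hairpin, of which 88.7% are whole. The build is mm10 per the submitters' processing notes. The aligner, the counter and the annotation release are not given in the sources used here, so how reads matching several family members were divided was read from the values. Of 2128 rows, 120 repeats with identical names and values were dropped. Counts were rounded and filtered with filterByExpr. 1 quasi-likelihood model of all 11 libraries was fitted in edgeR 4.0.16 with TMM scaling and 1 mean per group, checked on simulated data. P-values are two-sided and adjusted by Benjamini-Hochberg over 545 rows with a threshold of 0.05. SE is the log2 change over the square root of F. Ratios used 0.5 counts as pseudocount and exact permutation tests. Same-numbered libraries were checked for shared deviations before a replicate block was read. The permutation test of the difference in ratios between environments, its values by depth and the fit of the summed 3p rows were added after the data were seen. Alternatives used DESeq2 1.42.0, limma 3.58.1, other scalings, filters, row sums, blocks, depth and left-out libraries. All 5 members are reported by name, and for each of the 2 abundant ones the 5 rows of highest Pearson correlation. Members, lists and tests were chosen with earlier results of these data known.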

Additional observations from a re-analysis of the deposited data

Results flagged for a closer look

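The change of miR-148a-3p between dirty and clean mice had opposite signs in TN and VM cells. Every dirty library lay above every clean one in TN cells and below every clean one in VM cells, an arrangement of 8 rows (1.47%). In either direction 23.3% of all rows had no overlap in TN cells and 20.9% in VM cells. The VM minus TN difference in dirty mice less that in clean mice was -2.05 on the log2 scale (edgeR adjusted p = 0.0935), which did not pass. In this test 17.1% of all rows had an unadjusted edgeR p under 0.05. The log2 ratio of miR-148a-3p to miR-148b-3p differed between the environments by -1.81 (difference in dirty minus difference in clean mice, exact permutation of the environment within subsets, p = 0.015, adjusted p = 0.045 over 3 ratios). That test was chosen after the values were seen. It tests for no effect of the environment in either subset, not for the difference between the differences alone. Clean_TN had 2 libraries, and no batch label is given.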

How the results depend on the processing

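The rise of miR-148a-3p in VM cells of clean mice kept its direction in 24 of 24 alternatives and passed in 23. The exception was the shallow libraries alone (1.18, adjusted p = 0.0577), where the rise averaged over environments was 0.41 and did not pass either (adjusted p = 0.408). Where 1 library was left in a group, it was assumed to vary like the other groups. In dirty mice its value turned above 0 with limma-voom (0.005), library totals (0.009) and the deep libraries alone (0.011), and ranged from -0.33 to 0.10 leaving out 1 library at a time. Its change in TN cells passed with no filter beyond 1 count (1.02) and ranged from 0.73 to 1.17 leaving out libraries. In VM cells it passed with DESeq2 (-1.02), no filter (-1.02) and the compared groups alone (-1.001), with a range of -1.31 to -0.76. The difference between environments passed with DESeq2 (-2.03), no filter (-2.04) and a filter of 10 CPM in at least 2 libraries (-1.97), with a range of -2.33 to -1.74 (adjusted p between 1.98e-06 and 0.928 over all alternatives).

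The averaged rise of miR-148b-3p did not pass with no filter (0.44), in shallow (0.26) or deep libraries alone (0.45), and ranged from 0.35 to 0.52 leaving out libraries. It also failed with the replicate block (0.44, adjusted p = 0.0714) and with a replicate block by environment (0.45). Whether the replicate number pairs the samples was not settled: 5 of 15 same-numbered pairs had correlated deviations over 0.1 (r from -0.56 to 0.37). Within an environment r was 0.236 and -0.209 in clean mice and -0.498, 0.197 and 0.372 in dirty mice. Deviations from a mean of 2 or 3 libraries depend on each other, so these values cannot exclude pairing. Under the replicate block 56 rows passed in clean mice, against 95. The log2 ratio of miR-148a-3p to miR-148a-5p was -0.43 over replicate pairs (smallest possible p 0.0625) and -0.28 to 0.52 leaving out libraries. It has no value without a pseudocount.

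Rows called in clean mice were 30 in shallow and 27 in deep libraries alone, and 33 to 120 leaving out libraries, lowest without Clean_TN replicate 3, 34 without Clean_TN replicate 2 and 61 without Clean_VM replicate 3. In dirty mice they were 17 and 10, and 42 to 94 (lowest without Dirty_VM replicate 3), against 66. Averaged over both they were 35 and 47, and 86 to 145, against 129. For dirty against clean mice, TN cells had 3 by DESeq2, 4 with no filter and 0 to 28 leaving out libraries. VM cells had 19 by DESeq2, 1 by limma-voom, 2 by library totals, 16 with no filter, 2 at 10 CPM, 18 in the compared groups alone and 0 to 26 leaving out libraries. The difference between environments had 41 by DESeq2, 30 with no filter, 16 at 10 CPM, 1 in shallow libraries and 0 to 73 leaving out libraries, each highest without Dirty_TN replicate 3. Library totals moved the median of all rows by -0.21 in clean mice and 0.28 for the difference between environments. The causes were not tested. Depth limits miR-148a-5p and miR-152-3p most.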
